A study of Mus musculus with 16 samples.

Results

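Among the sites where Cbx3 was listed in mouse neural progenitor cells, a small number carried signal far above all others. They were taken here as the autosomal regions whose highest 50 bp window was over 10 times the median of the highest windows of all regions of the same library, with windows up to 200 bp apart merged into 1 region. The rule gave 160 regions, 51 of the 394816 autosomal regions of Cbx3 set 1 and 109 of the 123605 autosomal regions of set 2. With chromosomes X, Y and M the same limit would take in 233 regions. The regions were chosen by their Cbx3 signal, so their Cbx3 levels in the library that chose them are a description and no test of them was made.

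The cells were neural progenitors derived from the mouse embryonic stem cell line V6.5, through embryoid bodies over 4 days, followed by a monolayer in ITSF medium. They were crosslinked with 1% formaldehyde for chromatin immunoprecipitation with sequencing (ChIP-seq). Cbx3 was mapped in 2 libraries and RNA polymerase II (Pol II) in 1 library of cells with no treatment. Med26, Cdk8 and Pol II were mapped, in 1 library each, in cells transfected for 72 hours with control siRNA against luciferase or with siRNA against Cbx3. V6.5 is a single cell line, and whether the 2 Cbx3 libraries came from separate cultures is not stated in the labels. The files give genome positions only, so neither the neural identity of the cells nor how far the siRNA lowered Cbx3 was analysed here.

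Cbx3 (HP1 gamma) is a heterochromatin protein whose chromodomain binds histone H3 methylated at lysine 9, and it is also found over transcribed genes. Mouse centromeres lie at one end of each autosome, the end from which positions are counted. They are made of long arrays of minor satellite flanked by major satellite repeats, which are known as the main sites of constitutive heterochromatin in mouse cells. Genome builds hold few of these copies, and a build begins with an unsequenced stretch at that end. Reads from many copies can therefore gather on a few positions of a build. No repeat annotation or sequence of the files' build, mm9, was used here, so no region below is called a satellite. Its copy number and the amount of Cbx3 per copy cannot be told apart.

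Set 1 listed 923942 windows and set 2 listed 244855, and the other 7 libraries listed from 2721 to 116001. The values of each library were whole multiples of a fixed step. On the reading that 50 steps are 1 read covering a window, which is inferred from the values, the highest autosomal window held the equivalent of 359 reads in set 1 and of 133668 in set 2. The corresponding maxima of the other 7 libraries lay between 116 and 329. Set 2 thus stood apart from all 8 other libraries in the height of its top windows. The 2 Cbx3 libraries also carry different steps, so their levels are not on 1 scale. Results are given for each set on its own.

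The set 1 regions rose from 10.3 to 41.7 times the median region of that library, with a median of 14.6 times. Those of set 2 went from just over 10 to 22278 times, with a median of 18.8 times, and 20 of them lay over 100 times. In set 1 no region reached 100 times. The extreme regions held 2.71% of the summed signal of set 1 in 0.247% of its windows, and 50.7% of the summed signal of set 2 in 0.728% of its windows. They were also longer than usual, with a median of 25 listed windows in set 1 and 10 in set 2, against 2 and 1 over all autosomal regions. The threshold stood at a signal of 343 in set 1 and 131 in set 2. Just inside it in set 1 were signals of 352, 354 and 359, and just outside 329, 328 and 326. In set 2 the 3 regions just inside had signals of 131, 133 and 133, and those outside 131, 130 and 128. One of the latter, on chromosome 18 from 3007951 to 3008900, lay at exactly 10 times the median. In both libraries the values on either side of the limit lie close together. At 5 times the median the rule would give 375 regions and at 20 times 64.

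The highest Cbx3 signal of set 2 lay on chromosome 2 from 98502251 to 98507600, where 4 extreme regions of each library stood side by side. Their highest windows in set 2 had signals of 51947, 9784, 4218 and 291644, in order of position. The same 4 places had 1146, 1059, 511 and 1007 in set 1. This stretch of 5350 bp held 35.4% of the whole signal of set 2, but 0.129% of that of set 1. It dominates the set 2 regions, since it makes up 69.8% of all the signal they hold. The pair of middle regions lay at 98503701 to 98504350 and 98505001 to 98505500.

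Next in set 2 came a region on chromosome 9 from 35112701 to 35113300, with 34161 in set 2 and 1143 in set 1. A region on chromosome 6 from 103598951 to 103599350 had 15824 and 562. Both are short, of 600 and 400 bp, and isolated, in contrast to the chains of regions at the starts of chromosomes 9 and 11.

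In set 1 the order was different. Its highest regions lay side by side on chromosome 17, at 39979851 to 39983750 and 39984351 to 39985900, with signals of 1430 and 1406. Set 2 had 893 and 845 there. The next in set 1 was a region of 19550 bp on chromosome 11 from 3080551 to 3100100, with 1149 in set 1 and 1165 in set 2. On chromosome 17 from 36621501 to 36622050 set 1 had 1086 and set 2 had 396. The long chromosome 11 region from 3059451 to 3074900 had 710 and 265. The first place in one library was therefore not the first in the other.

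**Figure D1:**
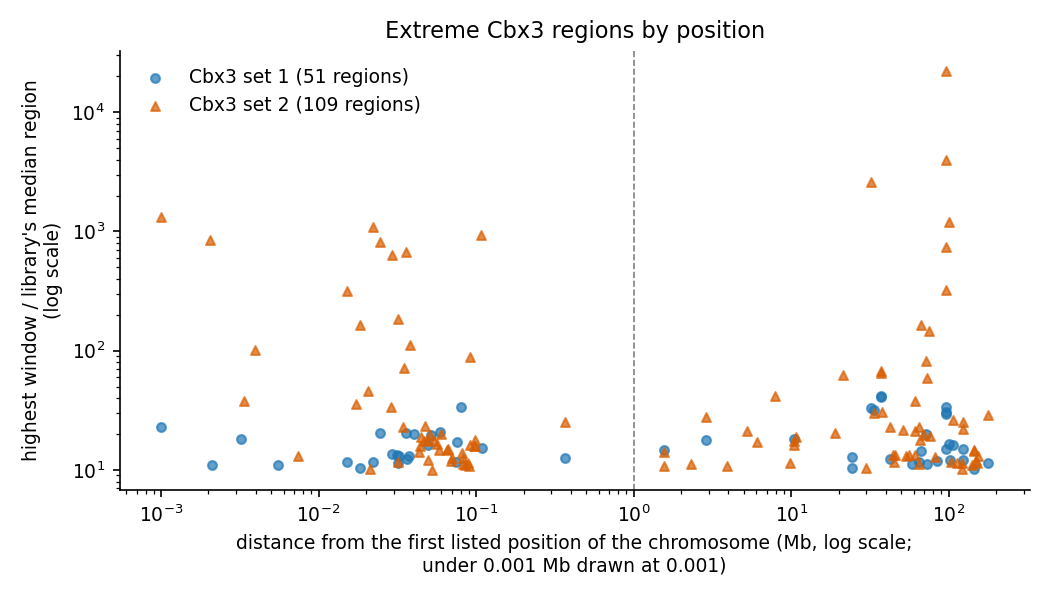
Distance of each extreme Cbx3 region from the first listed position of its chromosome (x axis, Mb, log scale) against its highest window divided by the library's median region (y axis, log scale); circles are the 51 regions of set 1, triangles the 109 of set 2, and the dashed line marks 1 Mb. A dense group lies left of the line, where 24 set 1 and 50 set 2 regions fall, and the highest set 2 values lie on both sides of it.

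Extreme regions gathered at the starts of a few chromosomes. Over all 9 libraries the first listed position of each autosome lay between 2999901 and 3106851. Within 1 Mb of it lay 24 of the 51 set 1 regions (47.1%, 95% Wilson interval 34.1 to 60.5%), against 0.813% of all autosomal set 1 regions. In set 2 it was 50 of 109 (45.9%, interval 36.8 to 55.2%), against 0.949%. Of the 51 and 109 regions, 22 and 48 were already within 0.1 Mb. Regions are not independent, as neighbours share reads and repeats, and the intervals cover counting error only.

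The gathering rested on chromosomes 9 and 11. Of the 74 extreme regions within 1 Mb of a start, 67 lay on these 2 chromosomes. The other 7 lay on chromosomes 12, 13 and 18, and the starts of the remaining 14 autosomes held none. Leaving out chromosomes 9 and 11 altogether, 7 of 83 regions (8.43%) were near a start. Merging windows up to 1000 bp apart gave 28.3% near a start in place of 46.3% over both sets. Joined across gaps of up to 100 kb, the 160 regions formed 63 loci, of which 5 (7.94%, interval 3.44 to 17.3%) began within 1 Mb of a start. That first Mb makes up 0.787% of the listed span of the autosomes. At the far end of the chromosomes there were fewer regions and no chain of them. Within 1 Mb of the last listed position lay 2 of 51 set 1 regions (3.92%, interval 1.08 to 13.2%), against 0.747% of all regions. In set 2 it was 2 of 109 (1.83%, interval 0.505 to 6.44%), against 0.752%. The set 1 interval lies above its background and that of set 2 covers it. Each rests on 2 regions taken as independent, and the chromosome 2 place is counted in both sets. The intervals therefore do not decide whether the far end exceeds the background. The regions near the far end belong to separate loci on chromosomes 2, 9 and 19, so by locus the ends differed less than by region.

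On chromosome 9 the extreme regions began at the first listed position itself. From 2999901 to 3038350, set 1 had 10 and set 2 had 18 of them. Their highest windows ranged from 354 to 792 in set 1, with a median of 422, and from 133 to 17215 in set 2, with a median of 1808. The stretch held 21350 listed bp in set 1 and 20900 in set 2, so both libraries listed much the same length. Its highest set 2 regions lay at 2999901 to 3001600, with 17215, and at 3021951 to 3024000, with 14182, where set 1 had 792 and 396. It held 7.71% of the whole signal of set 2 and 0.254% of that of set 1.

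The start of chromosome 11 was different in form. From 3031701 to 3100100, set 1 listed 63950 of 68400 bp in 10 extreme regions, with highest windows from 397 to 1149. Set 2 listed only 9650 bp there, but in 29 short extreme regions from 131 to 1165. All 29 lay inside extreme regions of set 1, so that 1 long region of set 1 stood against several fragments of set 2. In set 1 this stretch held more signal than any other extreme locus, 1.61% of the library, and in set 2 it held 0.601%. Genes at these positions were not assigned, since no gene table of mm9 was used.

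**Figure D2:**
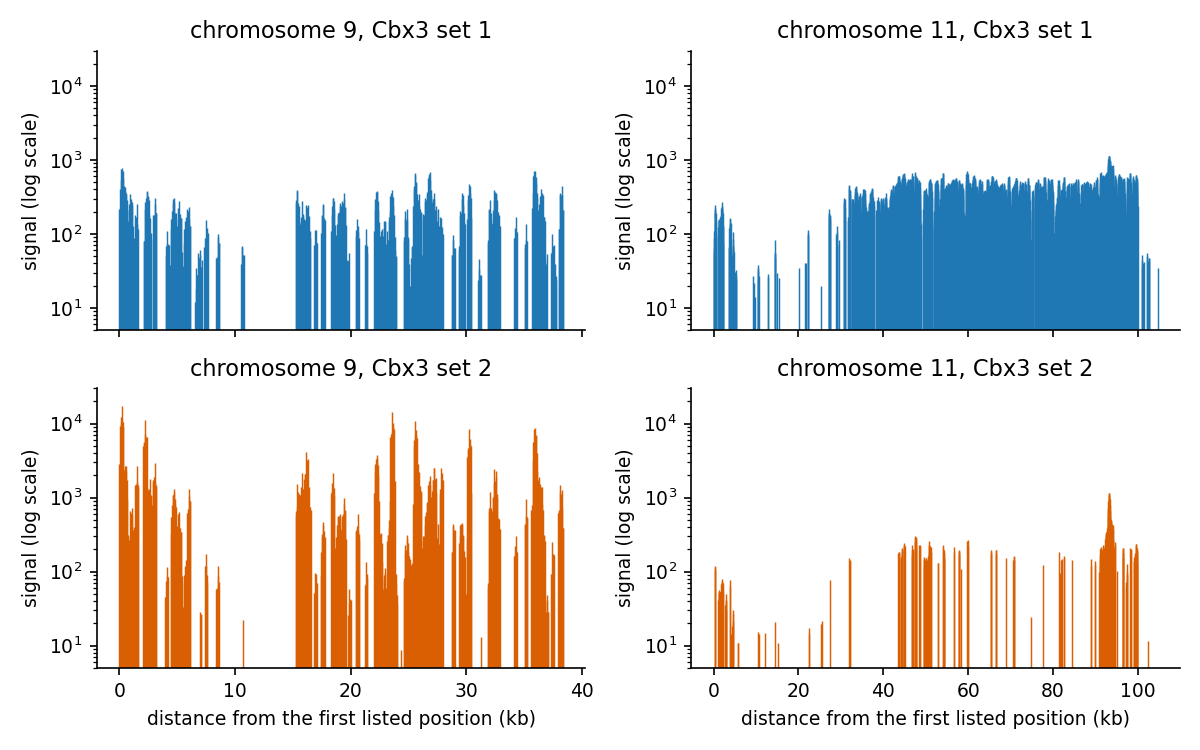
Signal of each listed 50 bp window (y axis, log scale) against the distance from the first listed position (x axis, kb) on chromosome 9 (left) and chromosome 11 (right), for Cbx3 set 1 (top) and set 2 (bottom). On chromosome 9 the same stretches are listed in both sets, with set 2 reaching 17215 and set 1 792; on chromosome 11 set 1 is listed almost without gaps over 68400 bp while set 2 shows separate short peaks.

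Of the other 3 starts, those of chromosomes 12 and 13 held a single place each and that of chromosome 18 held 2. On chromosome 12 from 3109751 to 3110300 the signal was 523 in set 1 and 12224 in set 2. On chromosome 13 from 3371801 to 3372900 it was 436 and 333, and on chromosome 18 from 3005201 to 3006450 it was 625 and 496. A second chromosome 18 region, from 3007551 to 3008950, had 374 in set 1 and is the one that set 2 lists just outside its limit. Of these, the chromosome 12 place had a set 2 signal above the median of the chromosome 9 regions, and those of chromosomes 13 and 18 lay below it.

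Most of these places were listed in both Cbx3 libraries, a measure the rule did not use for the library in question. Of the 51 set 1 regions, 47 were listed in set 2 (92.2%, interval 81.5 to 96.9%), against 3.38% of all autosomal set 1 regions and 44% of those with at least 10 windows. All 109 set 2 regions were listed in set 1 (interval 96.6 to 100%), against 10.8% of all and 82.1% of those with at least 10 windows. Longer regions were thus listed in the other library more often in general. Where listed, the set 1 regions had a median set 2 signal of 496, at percentile 99.98 of its autosomal regions, and the lowest was at percentile 99.86. The set 2 regions had a median set 1 signal of 393, and 108 of them lay above percentile 99 of set 1. Extreme in both libraries were 41 of the 51 (80.4%) and 64 of the 109 (58.7%). Of these 64, 29 were the short regions at the start of chromosome 11 that lay inside extreme regions of set 1. Counted once where regions of the 2 libraries overlapped, 40 places were extreme in both sets and 45 in set 2 alone. The share of all autosomal regions that are extreme in the other library was not computed.

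The 4 set 1 regions that set 2 did not list were 3 on chromosome 11, from 3032651 to 3036300, from 3036601 to 3038050 and from 3075151 to 3075500, and a single region of chromosome 19, from 61275401 to 61275850. This one had a set 1 signal of 388 and lay 65550 bp from the last listed position of the chromosome. The first 3 thus belong to the chromosome 11 stretch of which set 2 listed only a part.

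Counted once where regions of the 2 libraries overlapped, the 160 regions made 95 places. Of these 40 were extreme in both sets, 45 in set 2 alone and 10 in set 1 alone. At the 40 shared places the ratio of set 2 to set 1 signal ran from 0.337 to 290, a spread of 859 times, while the median was 0.991. Since 1 factor between the libraries would give the same ratio at every place, the spread does not depend on their scales. Across these 40 places Spearman's rho between the libraries was 0.25, and without the start of chromosome 11 it was 0.33 over 34 places. The places share the 2 libraries and many are neighbours, so rho is a description.

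The ratios of these 40 places fell into a low and a high group with a gap between 1.98 and 4.29. This split was seen in the values, was not fixed by any rule and depends on how regions were joined and chosen. Taken alone, the chromosome 9 region from 3037251 to 3038350, joined to a neighbour here, had a ratio of 3.28. Places extreme in set 2 alone also lay in the gap, with 2.08 and 2.24 on chromosomes 4 and 11. At the start of chromosome 9 such places had ratios from 1.12 to 6.93. In the high group were 17 places, the 4 on chromosome 2 named above, all 9 shared places at the start of chromosome 9, and 1 each on chromosomes 4, 6, 9 and 12. In the low group were 23, among them all 6 at the start of chromosome 11, with ratios from 0.337 to 1.01, and both neighbouring chromosome 17 places of highest set 1 signal, with 0.624 and 0.601. Set 1 signals of the 2 groups overlapped, with 354 to 1146 in the high group and 352 to 1430 in the low group. Set 2 signals ran from 2139 to 291644 in the high group and from 153 to 1165 in the low group, without overlap. As the groups were split on the ratio and set 1 signals span a narrow range, this separation largely follows from the split.

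**Figure D3:**
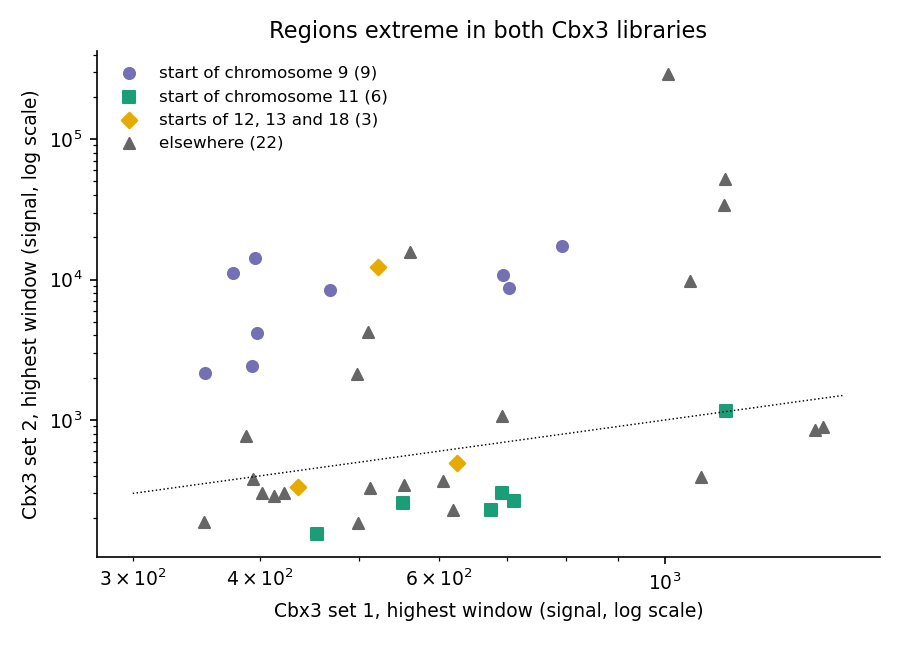
Highest window of Cbx3 set 1 (x axis, signal, log scale) and set 2 (y axis, signal, log scale) at the 40 places extreme in both libraries; colours and shapes give the chromosome start they lie at, and the dotted line marks equal values. The 9 places at the start of chromosome 9 lie far above the line and 5 of the 6 at the start of chromosome 11 below it, at like set 1 signals.

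Single places extreme in both sets included 70039051 to 70039400 of chromosome 4, with 498 in set 1 and 2139 in set 2. At 74915851 to 74917600 of chromosome 15 the signals were 691 and 1069, and at 75904801 to 75905850 of chromosome 12 they were 388 and 768. A pair on chromosome 8, at 125950201 to 125954150 and 125954901 to 125957550, had 413 and 513 in set 1 and 287 and 330 in set 2.

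Places extreme in set 2 alone were mostly scattered single regions with high, but not extreme, set 1 signal. Of the 95 places, 37 lay over 1 Mb from a start and were extreme in set 2 alone. Examples are a place on chromosome 13 from 77577951 to 77578400, with 1925 in set 2 and 232 in set 1, and on chromosome 9 from 24346351 to 24346700, with 816 and 197. On chromosome 4 from 64158851 to 64159200 they were 494 and 90.4. Those extreme in set 1 alone included a pair on chromosome 2, at 27351001 to 27353650 and at 27355101 to 27356700, with 440 and 359 in set 1, where set 2 had 128 and 115.

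Listing in the other 7 libraries was next compared, which the rule did not use. Of the 95 places, 57 were listed in none of the 7, 13 in 1, 14 in 2 and 11 in 3 or more. The share of all autosomal Cbx3 regions listed in none of the 7 was not computed. Any 1 of the 7 libraries listed only 0.0526% to 1.7% of all autosomal regions of a Cbx3 set. The count of 57 is therefore not read as a lack of other factors at these places. Cdk8, the kinase of the detachable module of Mediator, was the factor listed most often. Under control siRNA it was listed at 14 of the 51 set 1 regions (27.5%, interval 17.1 to 40.9%), against 0.193% of all autosomal set 1 regions. It was listed at 28 of the 109 set 2 regions (25.7%, interval 18.4 to 34.6%), against 0.263%. Under Cbx3 siRNA the counts were 13 (25.5%) and 27 (24.8%), against 0.227% and 0.287%. Among all regions of at least 10 windows, control Cdk8 was listed at 3.94% in set 1 and 8.45% in set 2, and Cbx3 siRNA Cdk8 at 4.48% and 6.14%, so long regions were listed more often than regions in general.

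Pol II, which transcribes protein-coding genes, was listed at fewer of the same regions than Cdk8. Untreated Pol II was listed at 7 of the 51 (13.7%, interval 6.81 to 25.7%) and 7 of the 109 (6.42%, interval 3.15 to 12.7%), against 0.765% and 0.58% of all regions. Under control siRNA it was listed at 4 (7.84%) and 7 (6.42%), against 1.7% and 1.54%. Under Cbx3 siRNA it was 7 (13.7%) and 8 (7.34%), against 1.53% and 1.36%. Among all set 1 regions of at least 10 windows the shares were 8.13% for untreated, 13.6% for control and 12.7% for Cbx3 siRNA Pol II. The intervals of the 3 extreme shares, 6.81 to 25.7%, 3.09 to 18.5% and 6.81 to 25.7%, cover these values. In set 2 the long regions had 1.63%, 4.7% and 4.13%. The interval of the extreme share covers the latter 2, and that of untreated Pol II lies above 1.63%. The untreated share rests on 7 regions, among them both neighbouring regions of chromosome 17. As the intervals take regions as independent, they do not decide whether extreme and long regions differ.

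Med26, a subunit of the Mediator complex, was listed least often. Under control siRNA it was listed at 3 of the 51 (5.88%, interval 2.02 to 15.9%) and 3 of the 109 (2.75%, interval 0.940 to 7.78%), against 0.373% and 0.27% of all regions. Regions of at least 10 windows had 5.21% and 1.15%, so the set 1 share was near that of long regions. With the limit at 20 times the median, control Med26 was listed at 9.38% of the 64 regions of both sets, against 3.75% of the 160 at 10 times. The listed regions are the same in both cases, so the share differs only through the total. They lie at 3 of the 95 places, each counted in both sets. Under Cbx3 siRNA there were 2 and 1, against 0.0674% and 0.0526% of all and 1.14% and 0.192% of long regions.

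In set 1, control Cdk8 and control Pol II followed the height of the Cbx3 signal differently. In set 1, control Pol II was listed at 37.7% of the 3551 regions between 2 and 5 times the median, at 15.3% of the 72 between 5 and 10 times and at 7.84% of the extreme ones. Control Cdk8 was listed at 7.01%, 26.4% and 27.5% of the same 3 classes. In set 2, control Pol II was listed at 4.76%, 9.09% and 6.42%, and control Cdk8 at 2.97%, 18.9% and 25.7%. The other Pol II libraries did not fall steadily in set 1: untreated Pol II was listed at 21.6%, 2.78% and 13.7%, and Pol II under Cbx3 siRNA at 35.6%, 6.94% and 13.7%. In set 2 they were listed at 1.93%, 4.20% and 6.42%, and at 4.44%, 6.99% and 7.34%. In set 2 both thus had higher shares in the upper 2 classes than in the class below. Those 2 classes held 6 and 7 listed regions for untreated Pol II, and 10 and 8 for Pol II under Cbx3 siRNA. For control Cdk8 they held 27 and 28. The top class holds 51 and 109 regions, so 1 region is a large share of each of its counts. Control Cdk8 had higher shares in the upper 2 classes than in the class below in both sets, and control Pol II in set 2 only. Region length differed between the classes as well, with medians of 6, 15.5 and 25 windows in set 1 and 5, 11 and 10 in set 2. The share near chromosome starts was 2.59%, 18.1% and 47.1% in set 1 and 1.66%, 12.6% and 45.9% in set 2.

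**Figure D4:**
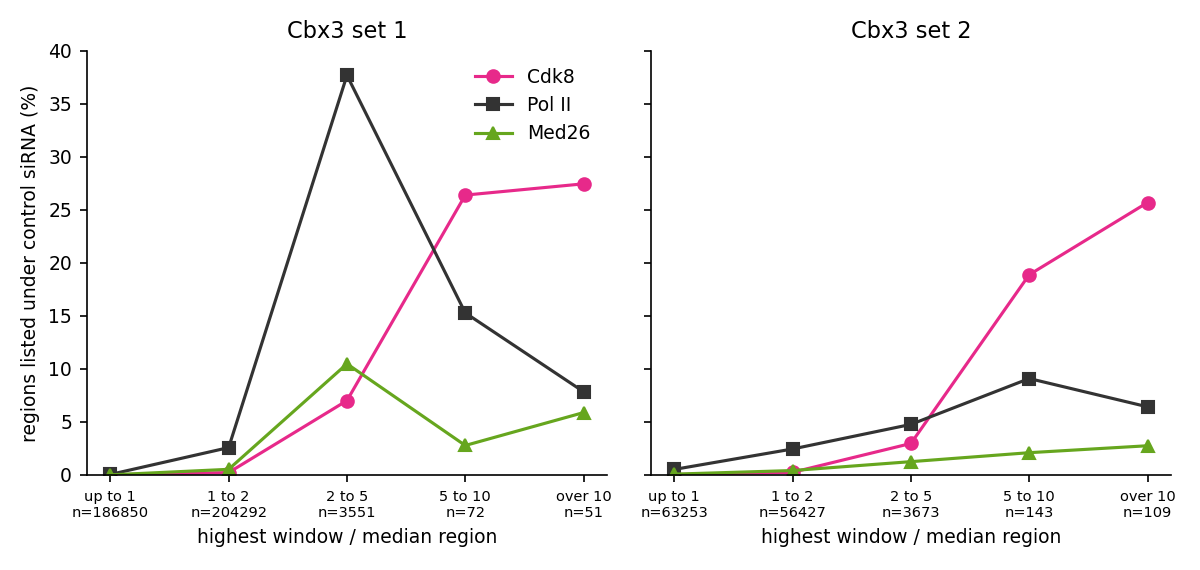
Share of Cbx3 regions listed under control siRNA by Cdk8, Pol II or Med26 (y axis, percent), by the highest Cbx3 window divided by the median region (x axis, 5 classes with their number of regions), for set 1 (left) and set 2 (right). Pol II peaks at 37.7% in the class from 2 to 5 times the median of set 1, while Cdk8 reaches 27.5% and 25.7% in the extreme classes.

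Some of the strongest sites of the other factors were extreme Cbx3 places, most often for Cdk8. Of the 20 highest control Cdk8 regions, 12 lay at one, including the 8 highest; over all 5544 control Cdk8 regions the share was 0.595%. After Cbx3 siRNA it was 10 of 20, including the 9 highest, against 0.463%. For Med26 it was 5 of 20 under control siRNA and 1 of 20 after Cbx3 siRNA, against 0.0841% and 0.115%. Several such regions can lie at 1 place, as the 5 control Med26 regions lay at 3 of the 95 places. For Pol II it was 6 of 20 in untreated cells, 2 under control siRNA and 5 under Cbx3 siRNA, against 0.148%, 0.0765% and 0.081%. The single highest autosomal region of each of the 7 libraries lay at an extreme Cbx3 place. All of them lay in 1 stretch of chromosome 17, from 39979851 to 39985900, so they are not 7 separate sites. Whether the inputs are high at the same positions was not tested, as the 7 input libraries were not analysed here.

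Only 1 place was listed in all 7 libraries, the chromosome 17 region from 39979851 to 39983750. Its highest windows had a signal of 168 in untreated Pol II, 145 in control Med26 and 112 in Cbx3 siRNA Med26. Cdk8 had 251 and 313 there under control and Cbx3 siRNA, and Pol II 158 and 162. The neighbouring region from 39984351 to 39985900 was listed in 6 of the 7, all but Med26 under Cbx3 siRNA, with 425 and 464 for Cdk8, the highest Cdk8 signals of both arms. Every antibody used in the study thus listed this stretch of chromosome 17.

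The places of highest set 2 signal showed another pattern. On chromosome 2 from 98502251 to 98503250, Cdk8 had 339 under control and 315 under Cbx3 siRNA. From 98506251 to 98507600 it had 303 and 313. On chromosome 9 from 35112701 to 35113300 it had 377 and 367. None of the 3 was listed for Pol II or Med26 in any library. Among the 17 places of high set 2 to set 1 ratio, Cdk8 was listed in either arm at 6 and Pol II or Med26 at none. Among the 23 of low ratio it was 9 and 8. The groups were split after their values were seen, so this is a description.

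The 2 chromosome starts differed as well. Of 17 places at the start of chromosome 9, Cdk8 was listed at 2, both under control siRNA only, and Pol II and Med26 at none. The signals were 50.8 from 3001951 to 3003150 and 173 from 3024301 to 3027950. Of 10 places at the start of chromosome 11, Cdk8 was listed at 5 and Pol II or Med26 at 3. The longest of them, from 3080551 to 3100100, had 76.2 and 53.8 for Cdk8 under control and Cbx3 siRNA, 74.2 and 75.5 for Pol II, and 69.4 for control Med26. Med26 under Cbx3 siRNA and untreated Pol II were not listed there. The places of the 2 starts also differed in length. On chromosome 9 the longest spanned 3650 bp, and the 3 listed for Pol II or Med26 on chromosome 11 spanned 7150, 4550 and 19550 bp. Long regions were listed more often in general, and the counts of the 2 starts were not matched for length.

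A further 4 places were listed in 4 or 5 libraries. On chromosome 3 from 5860501 to 5860950, Cdk8 had 204 and 216 under control and Cbx3 siRNA. Untreated Pol II had 80.7 and Cbx3 siRNA Pol II 76.7 there, while control Pol II was not listed. On chromosome 11 from 108872851 to 108873750, the same 4 libraries were listed, with 132, 161, 52.3 and 60.3. At 152512251 to 152513350 of chromosome 2 and 12810201 to 12811200 of chromosome 10, the Cdk8 and Pol II signals were low, between 11.02 and 19.03. Both were extreme in set 2 alone.

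Finally, the siRNA arms were compared at these places. With 1 library for each antibody in an arm, the differences have no replicates behind them, and no p-value was computed. Both Cdk8 libraries listed 21 of the 95 places. On the log2 scale, signal after Cbx3 siRNA minus that after control siRNA had a median of 0.13, against 0.05 over all 782 Cdk8 regions listed in both arms. It was positive at 14 and negative at 7, and ranged from -0.58 to 0.55. None of these 21 places differed by at least 2-fold, against 2.3% lower and 2.17% higher among all Cdk8 regions listed in both arms. A further 9 places were listed in the control only and 7 after Cbx3 siRNA only, with highest signals of 173 and 114. No difference was computed at places listed in 1 arm alone, so larger differences can lie among them.

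Among the places listed in both arms, the largest Cdk8 rise was on chromosome 2 from 5300251 to 5300400, from 59.6 to 87.3. The next was on chromosome 13 from 64269851 to 64271900, from 28.2 to 39.9. The largest falls among them were on chromosome 6 from 58856401 to 58857800, from 15.5 to 10.4, and in the longest chromosome 11 place, from 76.2 to 53.8. Next among the rises came 84375351 to 84377700 of chromosome 13 (9.87 to 13.9), 147072501 to 147073000 of chromosome 5 (92.7 to 121) and 40467751 to 40468050 of chromosome 18 (36.8 to 47.9). The other falls were at 157384901 to 157387550 of chromosome 2 (17.21 to 13.003), and at the chromosome 10 and chromosome 2 places named above, with log2 differences of -0.32 and -0.12. At the highest places on chromosomes 2, 9 and 17 named above the 2 arms lay within 0.32 of each other on the log2 scale. No replicate library gives a spread against which these single differences could be set.

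Both siRNA Pol II libraries listed 6 places, with a median log2 difference of 0.03 (range -0.87 to 0.40), against -0.29 over all 11064 Pol II regions listed in both arms. None of these 6 differed by 2-fold, against 3.56% lower and 0.569% higher among all listed in both arms. Pol II was listed at 2 places in the control only and at 3 after Cbx3 siRNA only, with highest signals of 16.5 and 76.7. No difference was computed at these, so larger ones can lie among them. Pol II was lower after Cbx3 siRNA on chromosome 19 from 61275401 to 61275850, with 43.6 against 79.8. The chromosome 2 place at 152512251 had 11.4 against 19.03, and the chromosome 10 place 18.3 against 13.9. Pol II was nearly equal at both chromosome 17 places and on chromosome 11 from 3080551. Med26 was listed in both arms at the first chromosome 17 place only, with 145 and 112, a log2 difference of -0.37. In the control only it was listed at 2 places and after Cbx3 siRNA only at 1, with highest signals of 69.4 and 17.7. The median over all 673 Med26 regions listed in both arms was -0.64, with 20.7% lower by at least 2-fold and 0% higher.

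**Figure D5:**
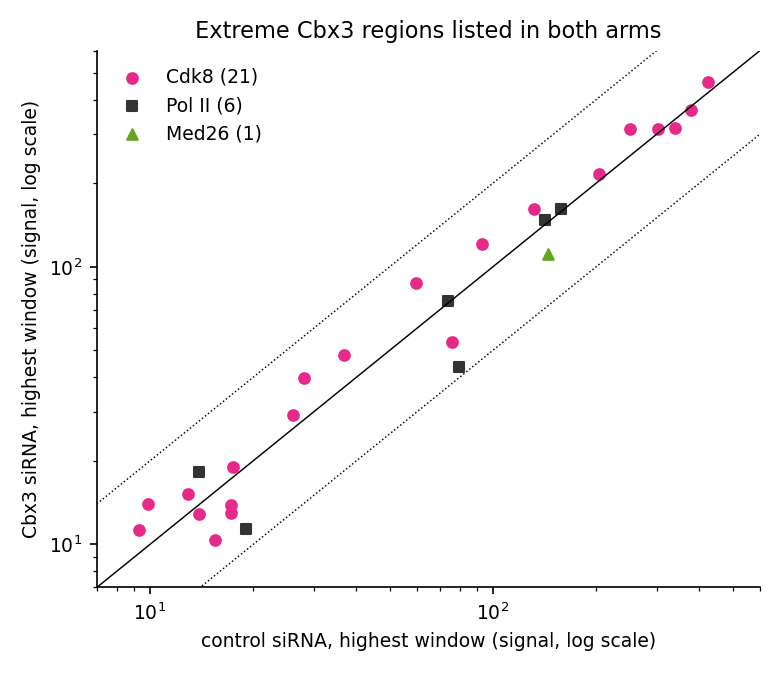
Highest window under control siRNA (x axis, signal, log scale) and Cbx3 siRNA (y axis, signal, log scale) at extreme Cbx3 places listed in both arms, for Cdk8 (21 places), Pol II (6) and Med26 (1); the solid line marks equal values and the dotted lines a 2-fold difference. All points lie between the dotted lines.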

How the data were processed

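ChIP-seq was measured in 9 libraries; 7 input libraries were not used. The deposited files list 50 bp windows with the authors' signal per window. Bowtie and the mm9 build are named, without version, in the submitters' processing notes. Not given in the sources used here: the window test, its threshold, the use of inputs and how reads with several matching places were assigned. Lists hold only windows above a minimum, so a place not listed can carry signal below it, and total reads are unknown. Windows up to 200 bp apart were merged. A region was listed in another library when at least 1 bp of a listed window overlapped it, and its signal there was the highest such window. Shares carry 95% Wilson intervals. No test was run, since each siRNA arm had 1 library and the regions were chosen by signal. Regions were named by a rule: the 10 highest of each set, up to 12 loci of highest signal with regions of both sets, groups of 3 or more regions, those listed in most other libraries, and the 5 largest differences each way between arms. Regions at the threshold are given by their values; others named are examples chosen after their values were seen. Members and lists were chosen with earlier results of these data known. The gene table at hand is of GRCm38 and was not used for positions. Alternatives covered merging, threshold, region signal, overlap, start window and each Cbx3 set. The merging, threshold and overlap steps were tested on simulated data. Scripts ran in Python 3.11.15 with scipy 1.17.1, matplotlib 3.10.9, numpy 2.4.6 and pandas 2.3.3. Positions are counted from 1.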

Additional observations from a re-analysis of the deposited data

Results flagged for a closer look

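Regions over the same limit on chromosomes X, Y and M were outside the autosomal rule and in no comparison above. Chromosome X held 8 in set 1 and 9 in set 2, from 73843801 to 166431050, with highest signals of 979 and 21070. Chromosome Y held 8 in set 1 and 45 in set 2, with highest signals of 1445 and 882. All of these X and Y regions were listed in the other Cbx3 library. Chromosome M held 3 in set 1, with a highest signal of 739, and no window of it was listed in set 2. None of the X and Y regions lay within 1 Mb of the first listed position of its chromosome.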

How the results depend on the processing

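Under the alternatives, the number of extreme regions was 106 with windows merged up to 1000 bp, 375 at 5 times and 64 at 20 times the median, 99 with a region's mean signal, and 51 to 109 with either Cbx3 library left out. The share within 1 Mb of a chromosome start, 46.3%, became 28.3% with merging up to 1000 bp, 28% at 5 times the median and 55.6% with mean signal; of the alternatives chosen after seeing the data, it was 8.43% without chromosomes 9 and 11 and 7.94% over loci joined across 100 kb. Counting overlapping regions of both sets once, also chosen after seeing the data, left every share listed in the other 7 libraries within its interval. Set 1 regions were listed in set 2 in 100% of cases at 20 times the median and with mean signal. Control Med26 was listed at 9.38% of regions at 20 times the median, against 3.75% of all 160, with the same listed regions over a smaller total. The share of summed signal in sets 1 and 2 was 2.69% and 50.6% with touching windows only, 2.82% and 50.8% with merging up to 1000 bp, 3.21% and 51.9% at 5 times, 1.79% and 49.8% at 20 times the median, and 2.09% and 50.1% with mean signal. Of 133 values under alternatives, 110 stayed within the 95% interval of the value reported, or within 1.5 times a reported number of regions, and why the others moved was not tested. No paired analysis was possible because the labels give 1 library for each antibody in an arm. Low signals in Cdk8 and Med26 rest on few reads, so a place not listed does not show absence.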
